A study of Mus musculus with 10 samples.

Results

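The Igf2r-Airn imprinted domain is a stretch of 441 kb on mouse chromosome 17 that holds the genes Igf2r, Airn, Slc22a3 and Slc22a2. These 4 genes were taken by symbol from a count table of 52632 genes. RNA was measured by poly(A) sequencing in 10 cultures of neural stem cells, grown as adherent layers with EGF and basic FGF from the cortices of single embryos at day 14.5. One allele of Smchd1 carried GFP and the E147A mutation (Smchd1GFP-E147A/+) in 2 female and 3 male cultures. The controls were 2 female and 3 male Smchd1+/+ cultures without the tag, so tag and mutation cannot be told apart. All females, of either genotype, were also XistdeltaA/+, and the males were XY. Per the labels every embryo had a Castaneus (Cast) father and a 129/C57 F1 mother, so that a Cast allele is the paternal one. The mother could pass on a 129 or a C57 copy, and how reads of a C57 copy were assigned is not given in the sources used here. The female E147A/+ cultures came from litters 1 and 2, and both female +/+ cultures from litter 3. The male E147A/+ cultures came from litters 1, 1 and 3, and the male +/+ cultures from litters 4, 1 and 3.

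Genomic imprinting is the expression of a gene from the copy of only 1 parent. At this domain the long noncoding RNA Airn is transcribed from the paternal copy, starting inside Igf2r and running antisense across its promoter, and the paternal Igf2r copy is silenced. Slc22a2 and Slc22a3 are imprinted in extraembryonic tissue and not generally in the embryo. IGF2R is a receptor that takes the growth factor IGF2 to the lysosome for breakdown and sorts lysosomal enzymes tagged with mannose 6-phosphate. SMCHD1 is a chromatin protein with a part in X inactivation and in silencing at several imprinted clusters.

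On GRCm38, Slc22a3 (ENSMUSG00000023828) lies at chr17:12418960-12507704 on the minus strand and Slc22a2 (ENSMUSG00000040966) at chr17:12584132-12628488 on the plus strand. Igf2r (ENSMUSG00000023830) lies at chr17:12682406-12769664 on the minus strand. Airn (ENSMUSG00000078247) lies at chr17:12741311-12860136 on the plus strand. In GENCODE M21, Airn starts in intron 2 of Igf2r (transcript Igf2r-201, 48 exons). The bodies of both genes overlap over 28.4 kb, but their annotated exons share 0 bases. The kit marked strand, and whether the counting used it is not given in the sources used here. In the total counts, reads of unspliced Igf2r over an Airn exon, or the reverse, could therefore not be separated. Counts of both genes by allele in the female +/+ libraries are given below.

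The starts of the antisense pair differ in their content of CG dinucleotides, the sites of DNA methylation, which were not assayed here. The windows from 250 bases before to 50 after the RefSeq start (GRCm38.p6) are shown because the Airn start lies within the gene it opposes, with each CG in capitals. The window of Igf2r is chr17:12769657-12769956, minus strand, and that of Airn is chr17:12741061-12741360, plus strand.
Igf2r: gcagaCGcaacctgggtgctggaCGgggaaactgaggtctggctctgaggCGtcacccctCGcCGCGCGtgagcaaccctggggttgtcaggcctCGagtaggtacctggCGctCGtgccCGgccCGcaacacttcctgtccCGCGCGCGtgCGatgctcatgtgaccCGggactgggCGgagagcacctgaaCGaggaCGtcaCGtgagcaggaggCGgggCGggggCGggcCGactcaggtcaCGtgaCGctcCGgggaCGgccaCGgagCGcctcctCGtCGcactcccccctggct
Airn: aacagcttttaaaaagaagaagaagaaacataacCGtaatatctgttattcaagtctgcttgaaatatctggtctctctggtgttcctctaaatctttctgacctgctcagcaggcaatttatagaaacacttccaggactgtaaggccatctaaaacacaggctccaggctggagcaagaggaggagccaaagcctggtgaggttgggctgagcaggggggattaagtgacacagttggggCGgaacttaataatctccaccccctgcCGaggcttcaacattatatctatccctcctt
The Igf2r window holds 34 CG and has a GC content of 70.7%, and 7.73% of 32851 promoter windows of this length hold at least as many. The Airn window holds 3 CG and has a GC content of 45.7%, and 31.4% of windows hold at most as many. A CG occurs in 94.6% of all windows, with a median of 7. The windows end 50 bases after the start, so CG farther along Airn or Igf2r was not counted. The values describe these windows only, not the regulatory regions of the domain.

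Libraries held 20648916 to 44519020 counts. All 9 neural stem cell markers, such as Nes and Sox2, reached 1 CPM (counts scaled to library size, with TMM factors) in every library, with a summed level of 4736 to 6815 CPM. Neuronal markers summed to 567 to 1035 CPM, oligodendrocyte-lineage markers to 6.87 to 125.7 CPM and microglial markers to at most 0.301 CPM. Astrocyte markers summed to 36.1 to 117.8 CPM, endothelial markers to at most 2.39 CPM and fibroblast and mural markers to at most 21.8 CPM. Counts of 4 Y-linked genes in female +/+ replicate 1 were 1.72% of the male mean, against 0.0413 to 0.432% in the other females. Over both sexes Smchd1 averaged 115.9 ± 12.9 CPM (SD, n = 5) with the mutant allele and 155.3 ± 27.1 CPM (n = 5) without it. The difference of -0.42 on the log2 scale (SE 0.15) missed the threshold (edgeR quasi-likelihood test, Benjamini-Hochberg adjusted p = 0.786). Gene counts do not show the mutation itself.

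Igf2r was the abundant member of the domain and was expressed in all 10 cultures. Its level was 141.6 and 112.8 CPM in female E147A/+ and 149.3 and 90.96 CPM in female +/+. In males it was 147.2, 122.7 and 152.8 CPM in E147A/+, and 190.7, 103.5 and 71.35 CPM in +/+. Both the highest and the lowest library were male +/+, and the E147A/+ range of 112.8 to 152.8 CPM lay inside the +/+ range of 71.35 to 190.7 CPM. The mean of the female E147A/+ cultures was 127.2 ± 20.4 CPM (SD, n = 2) and that of their +/+ counterparts 120.1 ± 41.3 CPM (n = 2). Male E147A/+ cultures averaged 140.9 ± 16.03 CPM (n = 3) and male +/+ cultures 121.8 ± 61.8 CPM (n = 3), so the order of the 4 means lies within the spread of the groups.

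Airn was detected in every culture at a low level, with 118 to 288 counts. Its level was 6.65 and 4.90 CPM in female E147A/+ and 4.62 and 4.29 CPM in female +/+. In males it was 6.30, 5.93 and 4.29 CPM in E147A/+, and 4.07, 6.24 and 4.49 CPM in +/+. The female groups did not overlap, while the male groups did. In males, 3.2% of all genes tested had every E147A/+ library above every +/+ library and 3.96% had every one below. Among all genes tested, 21.8% had both female E147A/+ libraries above both female +/+ libraries, so the lack of overlap is not particular to Airn. The 4 libraries of litter 1 had 5.93 to 6.65 CPM and the 6 libraries of other litters 4.07 to 4.90 CPM. Litter 1 supplied 3 of the 5 E147A/+ libraries and 1 of the 5 +/+ libraries, and the values of Airn within litters follow the tests.

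**Figure D1:**
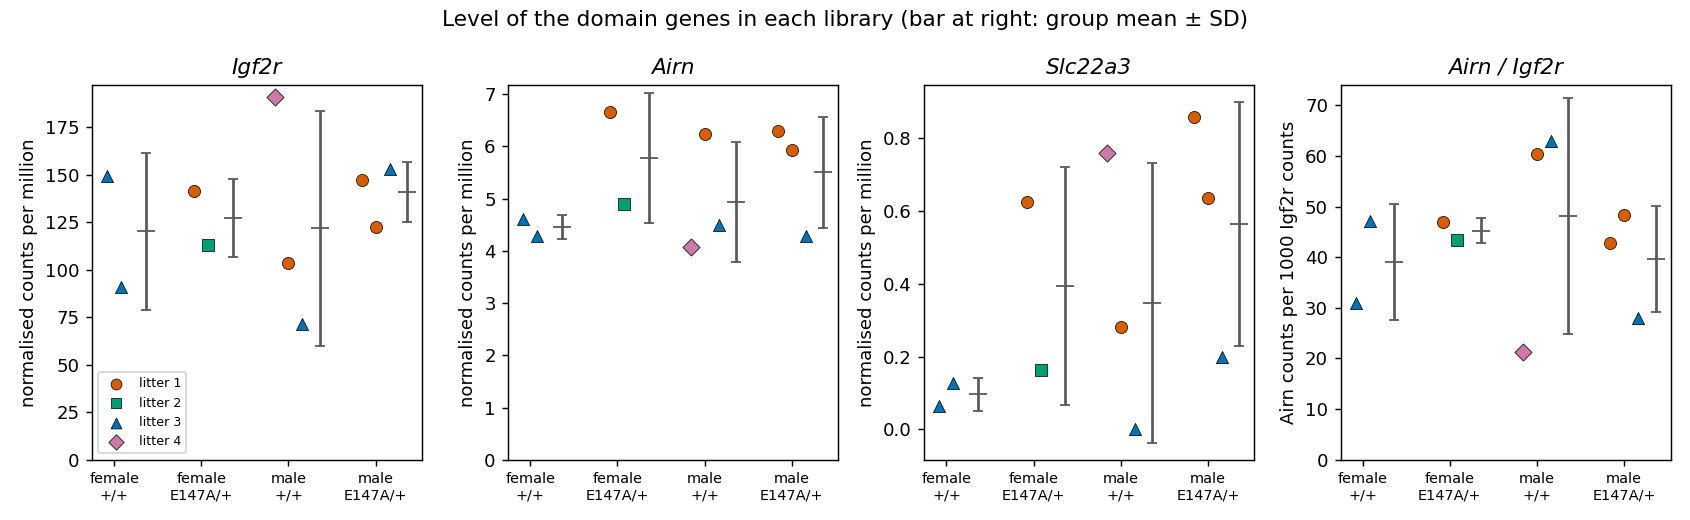
Level of the domain genes in each library, by sex and genotype. Points are libraries and bars are group means; Igf2r in E147A/+ (112.8 to 152.8 CPM) lay inside the range of +/+ (71.35 to 190.7 CPM).

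Slc22a3, a transporter of organic cations and monoamines, was close to the limit of detection. It had 27 and 7 counts in female E147A/+ and 2 and 5 counts in female +/+. In males it had 32, 19 and 6 counts in E147A/+, and 22, 6 and 0 counts in +/+. Its highest value, 0.857 CPM, was in a male E147A/+ library of litter 1, and the genotypes overlapped in males and not in females. The lowest female E147A/+ library had 7 counts against 5 in the higher female +/+ library, and a lack of overlap in this direction was seen in 21.8% of all genes tested. Slc22a2, a related organic cation transporter best known from kidney, had 0 counts in 9 libraries and 2 in male +/+ replicate 3. A count of 3 corresponds to 0.0674 to 0.145 CPM at these depths, so lower levels of Slc22a2 were not detectable. Per length, Igf2r had 7.66 to 20.5 RPKM (CPM per kilobase of exon), Airn at most 1.85 RPKM and Slc22a3 at most 0.190 RPKM. The RPKM of Airn was 5.52 to 16.3% of that of Igf2r in the same library. In these bulk cultures, fewer expressing cells and less RNA per cell cannot be told apart.

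None of the 3 members that passed the filter on low counts (Igf2r, Airn and Slc22a3, the last with at most 32 counts) passed the test of genotype. Over both sexes the log2 fold change of E147A/+ over +/+ was 0.15 (SE 0.26, 95% interval -0.44 to 0.73) for Igf2r. It was 0.27 (SE 0.24, -0.27 to 0.80) for Airn and 1.33 (SE 0.88, -0.63 to 3.30) for Slc22a3. Leaving out female +/+ replicate 2 took Igf2r to -0.0110, and leaving out litter 1, chosen after the data were seen, took Slc22a3 to -0.0895 over both sexes and -0.89 in males. Benjamini-Hochberg adjusted p-values from the edgeR quasi-likelihood test were 0.912, 0.834 and 0.824. At an adjusted p under 0.05, 0.0818% of all 17110 genes tested were called, which was 14 genes. At an unadjusted p under 0.05, 0 of the 3 members and 5.9% of all genes passed, and DESeq2 and limma-voom also called 0 of the 3. Of all genes tested, DESeq2 called 113, and no such count is given here for limma-voom. The intervals hold values from a fall to a rise for each gene, up to 0.73 for Igf2r and 0.80 for Airn on the log2 scale.

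Some marker sums, which were not tested, separated the genotypes within a sex. Oligodendrocyte-lineage markers summed to 14.4 and 6.87 CPM in female E147A/+ against 21.2 and 97.1 CPM in female +/+. In males they summed to 35.2, 37.9 and 22.3 CPM against 125.7, 71.3 and 40.5 CPM, so E147A/+ was below +/+ in both sexes without overlap. Among all single genes tested, 19.3% lay below in this way in females and 3.96% in males. Astrocyte markers were at 117.8 and 103 CPM in female E147A/+ and at 77.8 and 40.2 CPM in female +/+, while the males overlapped. Of all single genes tested, 21.8% lay above in this way in females. Endothelial markers were lower in female E147A/+ (1.80 and 0.370 CPM) than in female +/+ (2.04 and 2.39 CPM). So were fibroblast and mural markers (7.83 and 4.81 against 8.12 and 8.99 CPM), and the males overlapped for both lists. The part of these markers in the differences of the domain genes was not tested.

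Within each sex the same tests gave no call among the 3 members, with an unadjusted count of 0, and DESeq2 and limma-voom called 0 as well. Of all genes tested, DESeq2 called 44 in females and 46 in males, and no such count is given for limma-voom. In females the log2 fold change was 0.08 (SE 0.40) for Igf2r, 0.38 (SE 0.37) for Airn and 1.97 (SE 1.41) for Slc22a3. Without female E147A/+ replicate 1, Airn was 0.14 and Slc22a3 0.71, and with litter as a covariate they were 0.0830 and 0.10. In females the fit with litter rests on E147A/+ replicate 1 alone and takes the difference between litters from males. Igf2r turned to -0.0821 without female E147A/+ replicate 1 and to -0.23 without female +/+ replicate 2. The background there was 0.0117% of genes called, and 4.36% at an unadjusted p under 0.05. In males it was 0.21 (SE 0.33) for Igf2r, 0.16 (SE 0.30) for Airn and 0.70 (SE 1.06) for Slc22a3, against 0.0234% of genes called and 3.44% at an unadjusted p under 0.05. Without male +/+ replicate 3, Igf2r in males turned to -0.0630. The lowest adjusted p of these 6 tests in edgeR was 0.964. The difference between the sexes in the genotype effect was -0.13 for Igf2r, 0.22 for Airn and 1.27 for Slc22a3, each with an adjusted p of 0.999 in edgeR. With litter as a covariate that of Slc22a3 turned to -1.93. Leaving out female +/+ replicate 1 took Igf2r to 0.25, and leaving out female E147A/+ replicate 1 took Airn to -0.0343. For this difference edgeR called 0 of all genes, with 1.84% at an unadjusted p under 0.05, and DESeq2 called 2 genes. Female +/+ against male +/+ cultures gave -0.02 for Igf2r, -0.15 for Airn and -1.79 for Slc22a3, with an adjusted p of 0.999 each in edgeR. The background was 0.0292% called and 1.65% at an unadjusted p under 0.05. Igf2r turned to 0.46 without male +/+ replicate 1, and Airn to 0.0574 without male +/+ replicate 2.

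**Figure D2:**
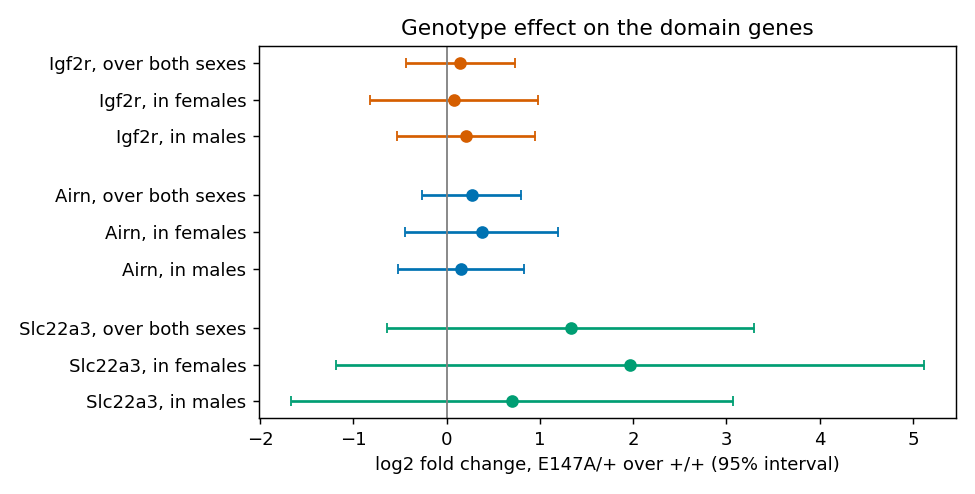
Log2 fold change of E147A/+ over +/+ for the 3 tested domain genes, with 95% intervals from edgeR. The interval of each gene holds 0 over both sexes, in females and in males.

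Males of both genotypes were present in litters 1 and 3, which allowed values within a litter. For Igf2r, E147A/+ minus +/+ was 0.38 in litter 1 (2 libraries against 1) and 1.10 in litter 3 (1 against 1), in log2 CPM. For Airn the corresponding values were -0.03 and -0.06, so the positive difference of Airn over all males was not present within either litter. For Slc22a3 the value in litter 1 was 1.23, and in litter 3 there were 6 counts against 0, for which no fold is given. No litter held females of both genotypes. In the edgeR fit of all 10 libraries with litter as a covariate, the male log2 fold change of Igf2r was 0.68 (SE 0.27, unadjusted p = 0.0394, adjusted p = 0.703), against 0.21 without it. That of Airn was -0.0457 (SE 0.30, adjusted p = 0.963) and that of Slc22a3 2.03 (SE 0.92, adjusted p = 0.703), so none passed the threshold. Over both sexes this fit gave 0.40 for Igf2r and 0.0186 for Airn (adjusted p = 0.980 and 0.997 in edgeR).

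The amount of Airn relative to Igf2r did not separate the genotypes. For 1000 Igf2r counts there were 47.0 and 43.4 Airn counts in female E147A/+ and 30.9 and 47.2 in female +/+. Male E147A/+ libraries had 42.8, 48.3 and 28.1, and male +/+ libraries had 21.3, 60.3 and 62.9. Both extremes were +/+, and the genotypes overlapped in each sex. E147A/+ cultures averaged 41.9 ± 8.08 (SD, n = 5) and +/+ cultures 44.5 ± 18.2 (n = 5). With sexes weighted equally, the log2 ratio was higher in E147A/+ by 0.04, the opposite sign to that of the arithmetic means (exact two-sided permutation within sex, 120 arrangements, p = 0.917, smallest possible 0.0167).

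Counts assigned to the 129 or the Cast allele existed for the 4 female libraries and allowed the parental copies to be read where both strains were present at the locus. Around the domain, genes within 5 Mb with at least 20 allelic counts had a median Cast share of 49.9% (36 genes) and 52.0% (35 genes) in the female +/+ libraries. In the female E147A/+ libraries the median was 0.508% (39 genes) and 0.513% (37 genes). Both strains were therefore present at the domain in the +/+ libraries and not in the E147A/+ libraries, although the labels give every embryo a Cast father. Imprinting of the domain could be read by strain in the 2 female +/+ libraries only.

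In those libraries Igf2r came almost wholly from the 129 copy and Airn wholly from the Cast copy. In female +/+ replicate 1, 15 of 769 allelic counts of Igf2r were Cast, a share of 1.95% (95% Wilson interval 1.19 to 3.19). In replicate 2, 37 of 568 were Cast, or 6.51% (4.76 to 8.85). The mean was 4.23 ± 3.23% (SD, n = 2), with the Cast copy being the paternal one per the labels. The intervals of the 2 libraries did not overlap (Fisher's exact test, p = 2.38e-05, which takes reads as independent molecules and compares 2 libraries, not conditions). Beside it, oligodendrocyte-lineage markers summed to 21.2 CPM in replicate 1 and 97.1 CPM in replicate 2, neuronal markers to 644 and 805 CPM, astrocyte markers to 77.8 and 40.2 CPM, and neural stem cell markers to 6608 and 4736 CPM. Their part in the Cast share of Igf2r was not tested. Airn runs across the start of Igf2r, and whether counting used strand is not given. Unspliced Airn reads over Igf2r exons could therefore be among the Cast counts of Igf2r, which was not tested.

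For Airn, 76 of 76 allelic counts in female +/+ replicate 1 were Cast (Wilson interval from 95.2%) and 56 of 56 in replicate 2 (from 93.6%). Over both libraries no 129 count was seen among 132, and 3 counts of 132, the limit used for a count of 0, would be 2.27%. Slc22a3 and Slc22a2 had no allelic count in these libraries, so their parental copies could not be read. Intervals and limits cover counting error only.

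**Figure D3:**
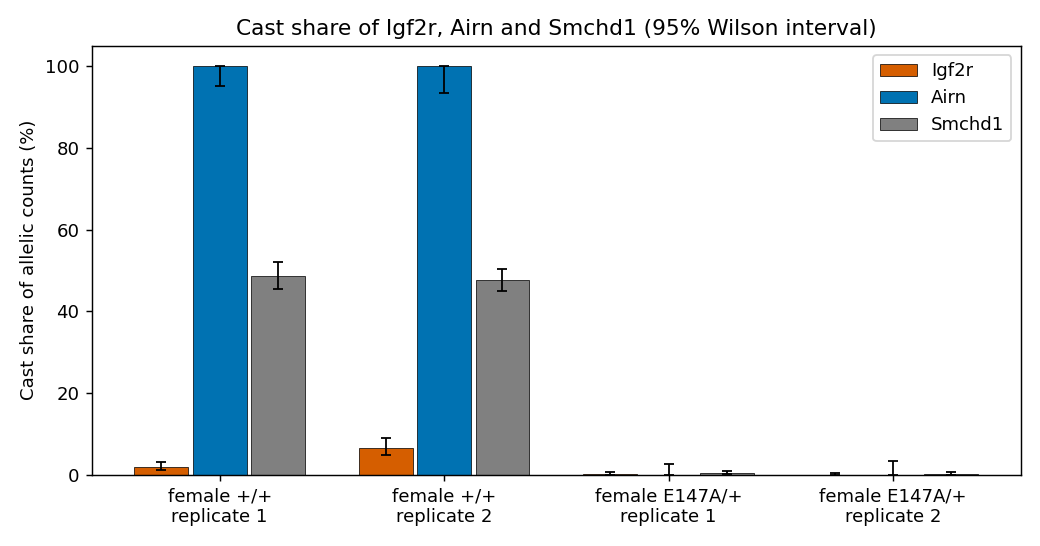
Cast share of allelic counts for Igf2r and Airn in each female library, with 95% Wilson intervals. In the +/+ libraries Igf2r was at 1.95% and 6.51% and Airn at 100%, and in the E147A/+ libraries both genes were near 0.

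Igf2r had the lowest and Airn the highest Cast share of all genes read within 5 Mb in both +/+ libraries. The next lowest gene was Fndc1 at 10.2% and 6.92%, and the highest other genes were Lix1 at 70.5% in replicate 1 and Mpc1 at 71.6% in replicate 2. In replicate 2 the share of Fndc1 lay inside the Wilson interval of Igf2r (4.76 to 8.85%), so the counts do not resolve their order there. In the E147A/+ libraries Fndc1 had 4.29% and 5.03% Cast and Igf2r 0.0951% and 0%, so their shares are not like measures. Genes directly around the domain were read from both copies. The Cast share of Tcp1, a chaperonin subunit, was 54.5% and 56.8%. Sod2, the mitochondrial superoxide dismutase, had 58.0% and 53.2%, and Agpat4, an acyltransferase, 51.1% and 48.5%. As a measure of how cleanly a silent copy is read, known imprinted genes elsewhere had 0 to 3.77% of counts from the silent copy in replicate 1 (5 genes, such as H19 and Cdkn1c). In replicate 2 the range was 0 to 3.83% (9 genes, such as Meg3 and Peg3). Of 6 such genes readable in E147A/+ replicate 1, 5 had 0.442 to 2.47%, while Ndn had 99.0% from the copy known as silent, although its neighbours had a median Cast share of 46.8%. The nearby Snrpn had neighbours at 12.9% Cast in that library. In E147A/+ replicate 2 the range was 0 to 1.64% (6 genes). Against the +/+ libraries' own ranges, the Igf2r share lay within the range in replicate 1 and above it in replicate 2. In the E147A/+ libraries Igf2r itself had 1 Cast count among 1875, with upper Wilson bounds of 0.537% and 0.464%. The lower bounds in the +/+ libraries, 1.19% and 4.76%, were above these.

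**Figure D4:**
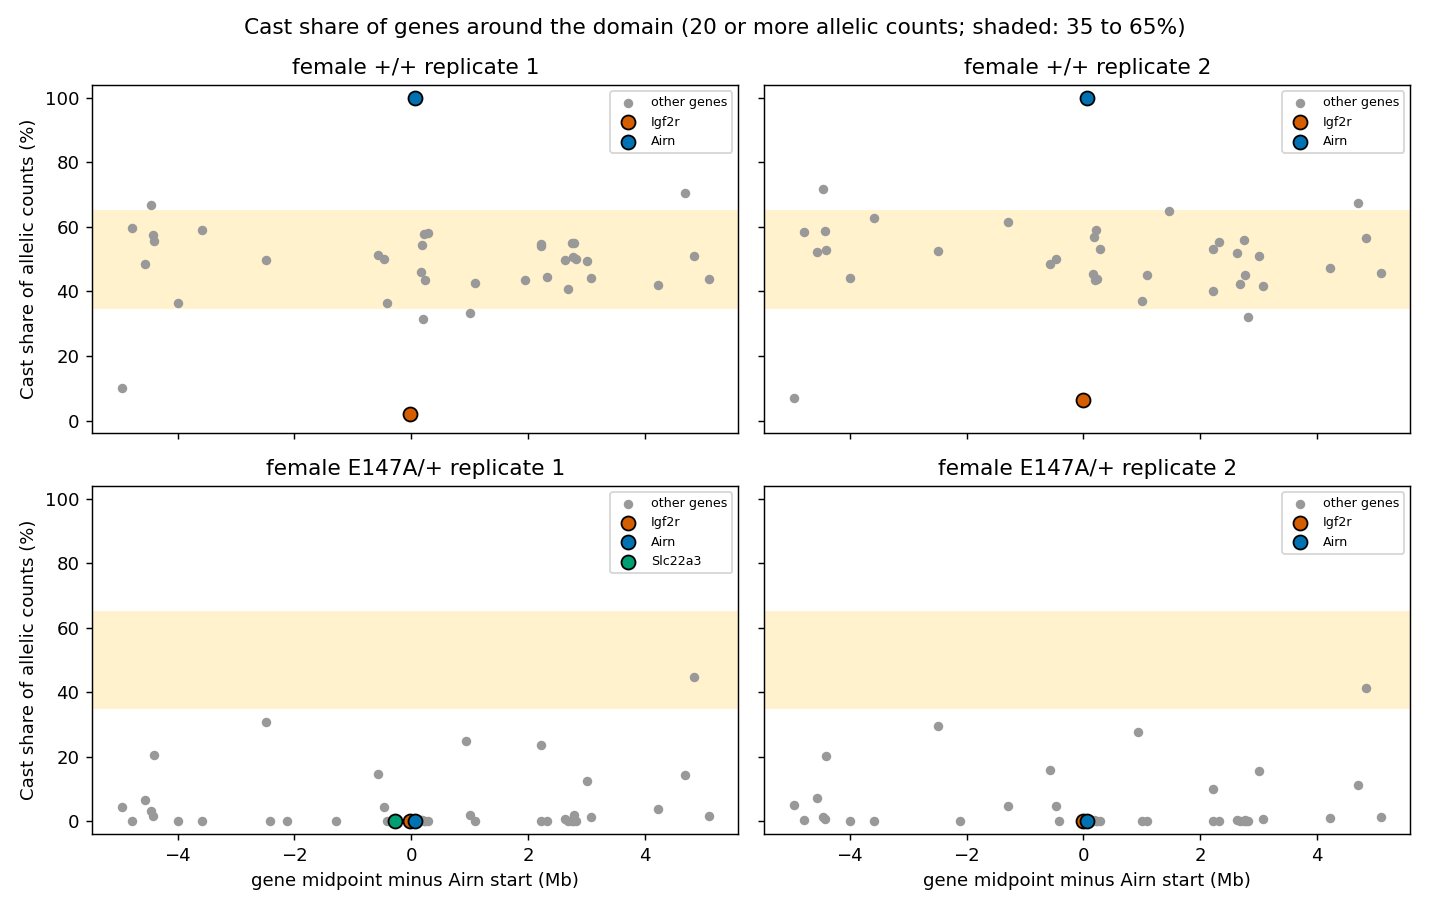
Cast share of genes against distance from the Airn start in the 4 female libraries. In the +/+ libraries most genes lie between 35 and 65% with Airn at the top and Igf2r at the bottom, and in the E147A/+ libraries the median gene is at 0.508% and 0.513%.

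In the E147A/+ females the assignment carried no parental information. Igf2r had 1 Cast count among 1051 (0.0951%) in replicate 1 and 0 among 824 in replicate 2, with an upper Wilson bound of 0.464%. Airn had 0 Cast counts among 138 and 112, so 250 of 250 were assigned to 129. In E147A/+ replicate 1, Slc22a3 had 20 allelic counts, all assigned to 129. Some genes within 5 Mb gave Cast counts here too. The highest was Lnpep at 44.8% of 192 and 41.3% of 143 counts, and Qk had 30.7% of 4397 and 29.5% of 2924. Closer to the domain, Agpat4 had 14.6% and 15.8% and Map3k4 4.30% and 4.89%. Whether reads of a maternal C57 copy were counted as Cast at such genes was not tested. With so few Cast counts at the median gene, an Airn count of 129 type does not show from which parent it came, and loss or retention of imprinting under E147A could not be measured by allele.

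The domain is linked to Smchd1 itself, which lies at chr17:71344489-71475343, 58.5 Mb from the end of the domain. Smchd1 split by strain as the domain did. Its Cast share was 48.8% and 47.6% in female +/+ cultures, and in female E147A/+ cultures it was 0.379% and 0.111%. In bins of 5 Mb from the domain to Smchd1, 13 of 13 bins had a median Cast share of 35 to 65% in each +/+ library. In each E147A/+ library 0 of 13 bins did, and 12 of 13 were under 15%, with no bin above 25.7%. Along the whole chromosome, 4 of 19 bins of E147A/+ replicate 1 were at 35 to 65%, all beyond Smchd1, and 0 of 19 in replicate 2. In females, the Smchd1 genotype and the strain of the paternal domain therefore cannot be told apart. The table has allelic columns for the 4 females, so the strain at the domain in males was not readable.

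**Figure D5:**
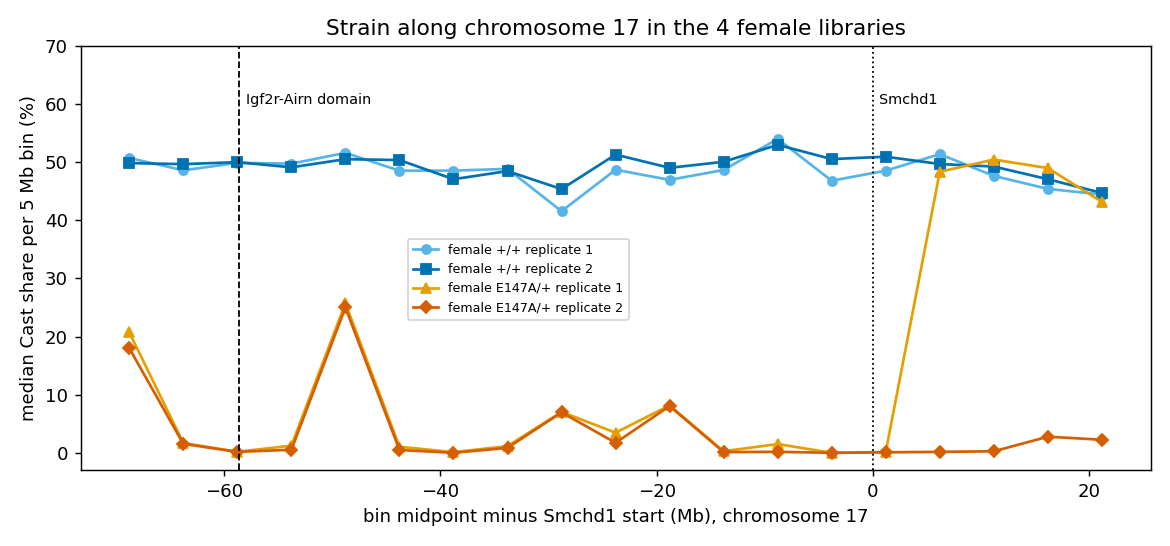
Median Cast share in 5-Mb bins along chromosome 17 in the 4 female libraries, with the domain and Smchd1 marked. From the domain to Smchd1 the +/+ libraries stay between 35 and 65%, while 12 of 13 bins of each E147A/+ library are under 15%.

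The genes beside the domain were described with the same fit, from a list of 14 of which 10 were tested. Over both sexes 0 were called, against 0.0818% of all genes, and 2 had an unadjusted p under 0.05 in edgeR, against 5.9% of all genes. DESeq2 and limma-voom called 0, and the median log2 fold change was 0.00 against -0.01 for all genes. For this list and those that follow, DESeq2 called 113 of all genes tested, and no such count is given for limma-voom. Acat3, an acetyl-CoA acetyltransferase, averaged 0.940 ± 0.458 CPM (SD, n = 5) with E147A and 1.82 ± 0.130 CPM (n = 5) without. Its log2 fold change was -1.05 (adjusted p = 0.764 in edgeR) and its groups did not overlap, as for 0.742% of all genes in that direction. Acat2, its close relative, had -0.38 (adjusted p = 0.821 in edgeR). Whether reads of the pair were split between them was not tested. Tcp1 had 0.24 and Mrpl18, a mitochondrial ribosomal protein, -0.19. These genes share the strain difference of the females. Plg and Mas1, which lie next to the domain, had at most 4 and 3 counts in any library.

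Of 19 genes for IGF ligands, receptors and binding proteins, 18 were tested and 0 were called over both sexes by edgeR, DESeq2 or limma-voom, with 0 at an unadjusted p under 0.05 in edgeR and a median of 0.05. Of all genes, 0.0818% were called and 5.9% passed unadjusted, so a count of 0 in a list of this size is near the background. Igf2, the ligand that IGF2R clears, had 1.59 to 6.17 CPM, and Igf1 had 0 to 14 counts. Igf1r, the signalling receptor for both ligands, had 70.2 to 155.6 CPM, and Igfbp2, a secreted binding protein, 988 to 1886 CPM. In females 1 of the 18, Igfbp5, had an unadjusted p under 0.05, against 4.36% of all genes. The lowest p values over both sexes belonged to Igfbp5 (log2 fold change 1.04, with 2.17 in females and -0.10 in males) and Igf2bp1, an RNA-binding protein (0.61). Igfbp7 (-0.49) and Htra1, a protease that cleaves binding proteins (-0.42), came next.

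All 21 genes of mannose 6-phosphate sorting and its cargo were tested, and 0 were called over both sexes by edgeR, DESeq2 or limma-voom, with 0 at an unadjusted p under 0.05 in edgeR (all genes 0.0818% and 5.9%) and a median of 0.00. M6pr, the other mannose 6-phosphate receptor, was even across libraries at 83.8 to 102.9 CPM. The lowest p values were those of Npc2, a lysosomal cholesterol carrier (0.30), and Gga3, a sorting adaptor (0.44). Nagpa, the enzyme that uncovers the tag, had -0.59 and the lysosomal thioesterase gene Ppt1 -0.17.

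Of 10 organic cation and related transporters, 7 were tested and 0 were called by the 3 tools, with 0 at an unadjusted p under 0.05 in edgeR (all genes 0.0818% and 5.9%) and a median of 0.06. Slc22a17, a lipocalin receptor, was the most abundant named here, averaging 643 ± 62.1 CPM (SD, n = 5) with E147A and 475.8 ± 122.7 CPM (n = 5) without. Its log2 fold change was 0.44, and Slc22a23 had -0.20, Slc22a15 -0.32 and Slc22a21 0.20. Of 15 chromatin factors linked to Airn or to imprinting, all were tested and 0 were called by the 3 tools, with 2 at an unadjusted p under 0.05 in edgeR (5.9% of all genes) and a median of -0.05. These were Smchd1 and Zfp57, a zinc finger protein that protects imprinted methylation, which averaged 53.8 ± 13.2 CPM (SD, n = 5) with E147A and 32.3 ± 18.4 CPM (n = 5) without. The log2 fold change of Zfp57 was 0.85 (adjusted p = 0.803 in edgeR). Zfp57 lies on chromosome 17 between the domain and Smchd1, so genotype and strain cannot be told apart for it in females. Ehmt1, a histone H3 lysine methyltransferase, had 0.17 and Lrif1, a SMCHD1-binding protein, 0.43.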

How the data were processed

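Per the submitters' processing notes, reads were handled with Trim Galore 0.4.4, HISAT2 2.0.5, featureCounts, R 3.5.1 and edgeR 3.24.0 on GRCm38 (mm10). The deposited values are unnormalized read counts per gene in 10 libraries. The 4 female libraries have further columns of counts split by strain, 129 or Cast. Allelic counts were 30.6 to 31.7% of the totals. How reads were assigned to a strain, and whether counting used strandedness, is not given in the sources used here.

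Genes were kept by filterByExpr (17110 of 52632), scaled by TMM and compared by the quasi-likelihood F test of edgeR 4.0.16 under R 4.3.3. The fit had 1 mean per group over 10 libraries and 6 residual degrees of freedom, with Benjamini-Hochberg adjustment over all genes at 0.05. Slc22a2 did not pass the filter. A library was taken to carry both strains at the domain where the median Cast share of neighbouring genes was 35 to 65%. Per the labels each culture came from 1 embryo, but nothing says that no embryo gave more than 1 library, so p-values measure the spread between these libraries.

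The members and gene lists were chosen with earlier results of these data known. Named were the members, Smchd1 and, per list, up to 4 genes with the lowest p over both sexes, and others are named for their level or position. Alternatives were RLE, DESeq2 1.42.0, limma-voom (limma 3.58.1), other filters, only the groups compared, litter, a replicate block and leaving out libraries. Tested on simulated data over both sexes (16756 genes), the method recovered 37% of 100 genes changed by 1 on the log2 scale and 93.9% of 99 genes changed by 3, and made 5 false calls.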

Additional observations from a re-analysis of the deposited data

How the results depend on the processing

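Across 266 fits of the domain genes under the alternatives, 0 had an adjusted p under 0.05. Leaving out 1 library gave, over both sexes, -0.0110 to 0.39 for Igf2r, 0.16 to 0.39 for Airn and 0.71 to 2.03 for Slc22a3. In females the ranges were -0.23 to 0.48 for Igf2r, 0.14 to 0.60 for Airn and 0.71 to 2.64 for Slc22a3, and in males -0.0630 to 0.69, 0.0389 to 0.36 and 0.10 to 2.09. Igf2r in males was highest without male +/+ replicate 1 (unadjusted p = 0.0261, adjusted p = 0.719 in edgeR). In the interaction it was -0.61 to 0.25 for Igf2r, -0.0343 to 0.42 for Airn and -0.12 to 1.93 for Slc22a3. For female against male +/+ it was -0.41 to 0.46 for Igf2r, -0.27 to 0.0574 for Airn and -2.39 to -0.40 for Slc22a3, and for the log2 ratio of Airn to Igf2r -0.21 to 0.19. Without litter 1, chosen after seeing the data, Slc22a3 was -0.0895 over both sexes and -0.89 in males, and the ratio -0.10. With litter as a covariate, Igf2r was 0.40 over both sexes, 0.12 in females, 0.68 in males and -0.57 in the interaction. Airn was 0.0186, 0.0830, -0.0457 and 0.13, and Slc22a3 1.07, 0.10, 2.03 and -1.93. In the fit with litter, female E147A/+ replicate 2 and male +/+ replicate 1, each alone in a litter, have no part in these values. limma-voom gave 0.0326 for Igf2r in female against male +/+, and arithmetic ratios per 1000 counts differed by -1.16. Scaled by the neighbours' median, the Cast share of Airn was 98.1%. The cause of these changes was not tested. Male replicates 2 of both genotypes share litter 1 and male replicates 3 share litter 3, while the other numbers span litters. The r of deviations of same-numbered libraries was -0.304 in females and -0.238, 0.416 and 0.034 in males, so the numbers were not taken as pairs throughout. With the replicate block Igf2r was 0.22, Airn 0.26 and Slc22a3 1.48, the ratio stayed at 0.04, and calls over all genes fell from 14 to 5. With female numbers crossed, added after seeing the data, there were 6. DESeq2 called 113 genes over both sexes, 44 in females, 46 in males and 2 in the interaction, against 14, 2, 4 and 0 in edgeR. The replicate block called 0 in females and 2 in males. A filter of 10 counts everywhere and a fit of females alone left Slc22a3 out.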

Other observations

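The genes whose levels followed those of Igf2r and Airn most closely were taken by Pearson's r of log2 CPM over the 10 libraries, as a description of libraries that share litters and depth. For Igf2r these were Psmb8, an immunoproteasome subunit (r = 0.990), Hk1, a hexokinase (0.967), Vasn (0.963), Fkbp15 (0.962) and Tap2, a peptide transporter of antigen presentation (0.961). Psmb8 ranged from 0.540 to 7.24 CPM and Tap2 from 2.70 to 25.5 CPM, and both lie on chromosome 17. On that chromosome the female genotypes differed in strain from the domain to Smchd1, and the part of strain in these values was not tested. For Airn they were Stx16, a syntaxin (0.978), Gm43071 (0.966), B3galnt2, a glycosyltransferase (0.961), Ikbkb, a kinase of NF-kappaB signalling (0.957), and Rogdi (0.952). None of these 5 lies on chromosome 17.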
